A study of Homo sapiens with 12 samples.

Results

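The enzymes that copy, write and remove DNA methylation were examined in T-47D, a human breast cancer line of epithelial cells that carries the oestrogen receptor. DNMT1, UHRF1, DNMT3A, DNMT3B, TET1, TET2, TET3 and HELLS were taken by symbol from the authors' differential expression table and joined by gene identifier to the FPKM (fragments scaled by transcript length and library size) of each library. All 8 were found among 19460 genes, and 103 of the 145447 listed splicing events belonged to them. One group of cells had received 1 µM palbociclib, an inhibitor of the cell cycle kinases CDK4 and CDK6, and the other its solvent DMSO, both for 24 h. Each group had 3 poly(A) RNA-seq libraries and 3 ATAC-seq libraries, an assay that reads how open chromatin is to the transposase Tn5. The genotype is given as WT for the RNA libraries, and the ATAC controls received 0.1% DMSO. The ATAC replicates are labelled as biological, while the RNA libraries are labelled only as replicates. All libraries come from a single cell line at a single dose and time, and no DNA methylation measurement was used here.

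Methylation of the cytosine in CG pairs is lost by dilution at each round of replication unless it is copied. UHRF1 binds the half-methylated CG behind the replication fork and ubiquitylates histone H3, which recruits DNMT1, the methyltransferase that copies the mark, and HELLS is a chromatin remodeller that opens packed DNA to both. DNMT3A and DNMT3B write methylation de novo, while TET1, TET2 and TET3 oxidise 5-methylcytosine, the first step of its active removal. UHRF1, HELLS and DNMT1 are known as genes whose RNA is high in dividing cells.

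The bases before the gene starts are shown for the genes of the maintenance machinery, whose RNA moved most, and for TET2, whose RNA moved least. Each window is the 250 bases upstream of a start in RefSeq on GRCh38.p14, printed 5′ to 3′ on the gene's strand. Capitals mark E2F-type letters, the letters TTCCCGC or those of TTGGCGC or of TTCGCGC or of TTGCCGC on either strand. The second UHRF1 window and the TET2 window each lay wholly inside an ATAC peak.
UHRF1, chr19:4909251-4909500 (+): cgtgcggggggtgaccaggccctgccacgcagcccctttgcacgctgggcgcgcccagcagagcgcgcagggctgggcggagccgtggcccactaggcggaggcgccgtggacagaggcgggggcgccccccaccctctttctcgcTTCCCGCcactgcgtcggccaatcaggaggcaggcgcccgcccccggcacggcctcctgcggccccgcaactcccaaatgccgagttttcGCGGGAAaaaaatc
UHRF1, chr19:4909894-4910143 (+): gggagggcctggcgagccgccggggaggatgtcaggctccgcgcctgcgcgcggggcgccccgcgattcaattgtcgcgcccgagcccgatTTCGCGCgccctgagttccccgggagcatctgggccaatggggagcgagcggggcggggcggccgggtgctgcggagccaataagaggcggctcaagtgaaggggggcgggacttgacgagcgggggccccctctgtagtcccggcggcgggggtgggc
HELLS, chr10:94545538-94545787 (+): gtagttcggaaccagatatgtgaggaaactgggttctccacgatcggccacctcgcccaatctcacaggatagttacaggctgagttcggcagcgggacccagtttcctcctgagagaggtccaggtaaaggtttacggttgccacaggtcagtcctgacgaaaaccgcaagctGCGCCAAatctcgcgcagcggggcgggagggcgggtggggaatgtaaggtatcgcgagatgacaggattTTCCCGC
DNMT1, chr19:10194954-10195203 (-): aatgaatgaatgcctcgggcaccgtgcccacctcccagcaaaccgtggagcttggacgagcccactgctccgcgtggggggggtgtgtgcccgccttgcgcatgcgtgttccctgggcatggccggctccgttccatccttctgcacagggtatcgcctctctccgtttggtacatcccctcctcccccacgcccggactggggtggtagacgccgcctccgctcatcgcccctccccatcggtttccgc
TET2, chr4:105146626-105146875 (+): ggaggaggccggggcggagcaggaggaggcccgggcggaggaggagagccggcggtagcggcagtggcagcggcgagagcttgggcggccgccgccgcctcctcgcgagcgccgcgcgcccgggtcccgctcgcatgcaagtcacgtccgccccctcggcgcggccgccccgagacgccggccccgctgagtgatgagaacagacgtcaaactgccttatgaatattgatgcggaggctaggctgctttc

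E2F-type letters stood at 2 places in the first UHRF1 window, their first base 104 and 14 bases before the start, and at 1 place in the second, 159 bases before it. HELLS had 2, at 76 and 7 bases. They were absent from the DNMT1 window, from those of DNMT3A, DNMT3B, TET1 and TET2, from the third UHRF1 window at chr19:4910117-4910366 and from the TET3 window at chr2:74002442-74002691, while the TET3 window at chr2:73984660-73984909 held 1. Of all 35116 windows of the same length, 10.9% held such letters. TTTGAA or TTCGAA, the letters of a cell-cycle homology element, were in 14.3% of all windows and, among the genes here, only in the other TET2 window, at chr4:105145625-105145874. No window of these genes held both kinds of letters. CCAAT, in 32.0% of all windows on either strand, stood once in the first printed UHRF1 window, at 2 places in the second, once in HELLS and in neither the DNMT1 nor the TET2 window. GGGCGG, in 42.6% of all windows, stood at 2, 3 and 2 places in the printed UHRF1 and HELLS windows and at 5 in that of TET2, overlapping matches included, with 0 in DNMT1. CG pairs numbered 28 and 32 in the printed UHRF1 windows, 18 in HELLS, 21 in DNMT1, 34 in TET2 and 3 in the DNMT3B window at chr20:32779602-32779851, against a median of 11 over all windows. The DNMT3B window precedes a later start inside its gene record. The record starts of DNMT3B, UHRF1 and TET3 had no window, so the bases before them were not read. A match is a run of letters and was not tested as a binding site.

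Palbociclib-treated cells held less RNA of the maintenance genes HELLS, UHRF1 and DNMT1. HELLS and UHRF1 fell to 14.9% and 15.0% of their DMSO level and DNMT1 to 37.3%. DNMT3B fell to 39.8%, TET3 to 76.6% and TET1 to 67.5%, while the differences for TET2 and DNMT3A did not pass the test. By limma on log2(FPKM + 1) with Benjamini-Hochberg adjustment over 15869 genes, 6 of the 8 were lower and 0 higher at an adjusted p under 0.05, where 22.9% of all genes tested were lower and 20.9% higher. The authors' deposited table calls 6 lower and 1 higher, against 20.3% and 17.9% of its genes. The libraries of the groups did not overlap, with palbociclib lower, for the same 6, and, with palbociclib higher, for DNMT3A, where this held for 28.2% and 26.5% of the genes tested. Quantile normalization gave 6 lower and 1 higher and median centring 5 and 1, while the whole table went from 3628 lower and 3312 higher to 2856 and 4588 under the first and 2465 and 5468 under the second. In bulk RNA, fewer cells of a type and less RNA per cell cannot be told apart.

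**Figure D1:**
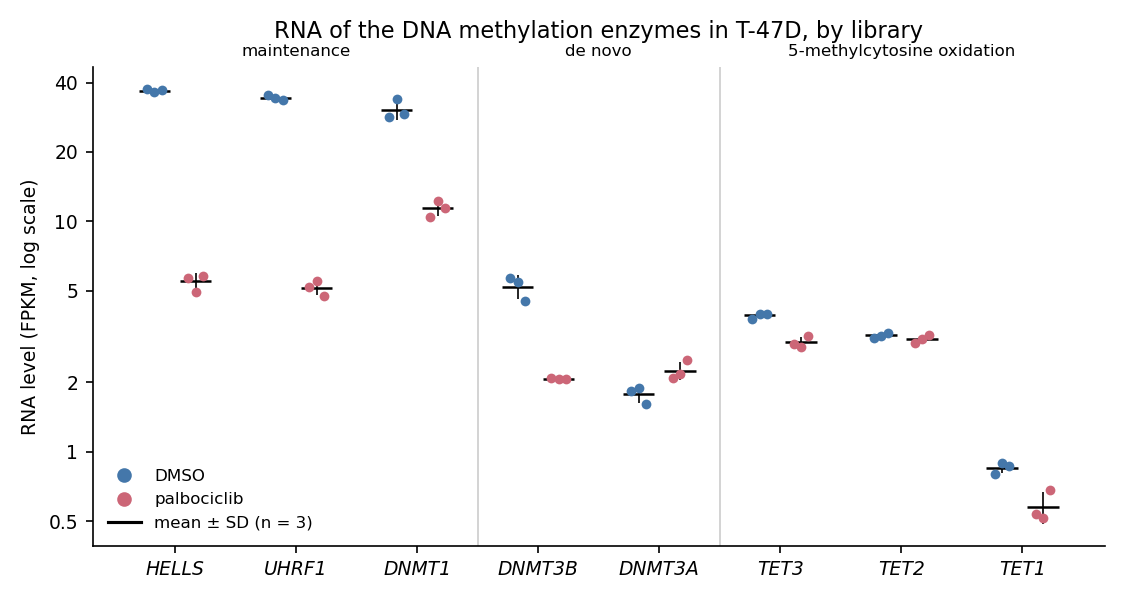
RNA level of each gene in each library in FPKM on a log axis, DMSO in blue and palbociclib in red, with the mean and SD of 3 libraries in black. HELLS, UHRF1 and DNMT1 drop from 28.3 FPKM or more to 12.2 or less, DNMT3B drops below DNMT3A, and the libraries of the groups overlap for TET2 alone.

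HELLS (ENSG00000119969, chr10:94545788-94613905, + strand) stood at 37.4, 36.3 and 37.0 FPKM in DMSO replicates 1 to 3 and at 5.69, 4.96 and 5.81 FPKM in palbociclib replicates 1 to 3. The groups lay far apart, and within each group the libraries differed little. The mean went from 36.9 ± 0.567 to 5.49 ± 0.464 FPKM (SD, n = 3 libraries, as for every ± value on RNA), 6.72-fold lower. Its log2 change was -2.55 (SE 0.06, limma adjusted p = 5.87e-09), and 0.744% of the genes tested changed further downward.

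UHRF1 (ENSG00000276043, chr19:4903080-4962154, + strand) stood at 35.3, 34.1 and 33.5 FPKM in DMSO and at 5.18, 5.51 and 4.76 FPKM with palbociclib. Its means of 34.3 ± 0.906 and 5.15 ± 0.378 FPKM differed 6.65-fold, a log2 change of -2.52 (SE 0.05, limma adjusted p = 4.7e-09). HELLS and UHRF1 thus differed from DMSO by nearly the same factor. The record of ARRDC5 overlaps that of UHRF1, and whether the authors counted by strand is not given in the sources used here.

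DNMT1 (ENSG00000130816, chr19:10133346-10194953, - strand) was read at 28.3, 34.0 and 29.3 FPKM in DMSO and at 10.5, 12.2 and 11.4 FPKM with palbociclib. All 3 treated libraries lay below every control, by a smaller factor than for its partners. The mean fell 2.68-fold, from 30.5 ± 3.05 to 11.4 ± 0.874 FPKM, with a log2 change of -1.35 (95% interval -1.52 to -1.17, limma adjusted p = 2.81e-06). In the share of genes that changed further downward DNMT1 stood at 2.03%, against 0.794% for UHRF1.

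The de novo enzymes did not move together. DNMT3B (ENSG00000088305, chr20:32762385-32809356, + strand) went from 5.65, 5.47 and 4.52 FPKM in DMSO to 2.09, 2.06 and 2.07 FPKM with palbociclib. Its 3 treated libraries were almost equal, and the lowest control was above them all. The log2 change was -1.01 (SE 0.08, limma adjusted p = 2.56e-05).

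DNMT3A (ENSG00000119772, chr2:25227874-25342590, - strand) was read at 1.84, 1.90 and 1.61 FPKM in DMSO and at 2.10, 2.17 and 2.50 FPKM with palbociclib. Every treated library was above every control, with means of 1.78 ± 0.156 and 2.25 ± 0.212 FPKM. The log2 difference of 0.22 (95% interval 0.04 to 0.41) missed the threshold, with an unadjusted p of 0.024 and a limma adjusted p of 0.0539. The call depends on the setting, since the adjusted p was 0.0218 after quantile normalization, 0.01 after median centring and 0.033 without the intensity trend. DNMT3A stayed uncalled with a pseudocount of 0.1 FPKM (0.057), without the filter (0.066) and with a block on replicate number (0.0924). Leaving out any 1 library also gave no call, with adjusted p from 0.0663 to 0.157. The authors' deposited table gives a log2 change of 0.34 with an adjusted p of 0.00654.

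Among the oxidising enzymes TET3 (ENSG00000187605, chr2:73983631-74135498, + strand) was read at 3.78, 3.97 and 3.97 FPKM in DMSO and at 2.93, 2.85 and 3.19 FPKM with palbociclib. The groups did not overlap, and the fall was small beside those of the maintenance genes. Its log2 change was -0.30 (SE 0.06, limma adjusted p = 0.00583).

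TET1 (ENSG00000138336, chr10:68560337-68694487, + strand) was the gene with the lowest level, at 0.803, 0.896 and 0.865 FPKM in DMSO and 0.536, 0.515 and 0.681 FPKM with palbociclib. Its groups did not overlap either. The log2 change of -0.23 (SE 0.08) passed only just, with a limma adjusted p of 0.0485. Leaving out any 1 library other than palbociclib replicate 3 ended the call, with adjusted p from 0.0741 to 0.138, as did a pseudocount of 0.1 FPKM (0.0511) and median centring (0.192). A pseudocount of 1 FPKM understates the change of so low a gene, which was -0.50 with 0.1 FPKM and -0.57 in the authors' deposited table.

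TET2 (ENSG00000168769, chr4:105145875-105279803, + strand) was read at 3.13, 3.19 and 3.29 FPKM in DMSO and at 2.95, 3.09 and 3.23 FPKM with palbociclib. The groups overlapped. The log2 difference was -0.04 (95% interval -0.18 to 0.10, limma adjusted p = 0.645), and its sign turned to 0.03 with quantile normalization and 0.06 with median centring.

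Levels in FPKM, which are scaled by length and so can be set side by side between genes, changed order. In DMSO the order of mean level was HELLS, UHRF1, DNMT1, DNMT3B, TET3, TET2, DNMT3A and TET1, and of the neighbours only UHRF1 and DNMT1 overlapped in their libraries. With palbociclib it was DNMT1, HELLS, UHRF1, TET2, TET3, DNMT3A, DNMT3B and TET1, and HELLS overlapped UHRF1 as TET2 overlapped TET3. DNMT1 went from the third place to the first, and DNMT3B from above TET3 to below DNMT3A.

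Ratios within a library show these shifts without any scaling between libraries, apart from the pseudocount. UHRF1 over DNMT1 was 1.25, 1.00 and 1.14 in FPKM in DMSO and 0.495, 0.451 and 0.417 with palbociclib. HELLS over DNMT1 went likewise from 1.32, 1.07 and 1.26 to 0.543, 0.405 and 0.508. UHRF1 had been near or above the level of DNMT1 and was now at less than 0.5 of it. On the log2(FPKM + 1) scale the ratios shifted by -1.17 and -1.20.

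UHRF2, a paralogue of UHRF1, took the higher level of that pair after treatment. The ratio of UHRF1 over UHRF2 was 2.12, 2.04 and 1.97 in FPKM in DMSO and 0.422, 0.442 and 0.401 with palbociclib, a log2 shift of -2.09. UHRF2 itself fell to 72.8% of its DMSO level (log2 change -0.43, limma adjusted p = 6.71e-05).

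DNMT3B over DNMT3A went from 3.07, 2.88 and 2.81 in FPKM to 0.997, 0.952 and 0.829, so that the excess of DNMT3B was gone in all 3 treated libraries. The log2 shift was -1.24. TET2 over TET3 moved from 0.828, 0.805 and 0.830 to 1.01, 1.08 and 1.01, a log2 shift of 0.26. TET1 over TET3 shifted by 0.06, and by -0.13 with a pseudocount of 0.1 FPKM, so it has no settled direction. In FPKM that ratio was 0.2122, 0.2261 and 0.218 in DMSO and 0.1827, 0.1805 and 0.2138 with palbociclib, and the groups overlapped. Each of the 6 ratios gave p = 0.1 in an exact two-sided permutation test, also after Benjamini-Hochberg adjustment over the 6, and 0.1 is the smallest p that 3 libraries against 3 allow.

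**Figure D2:**
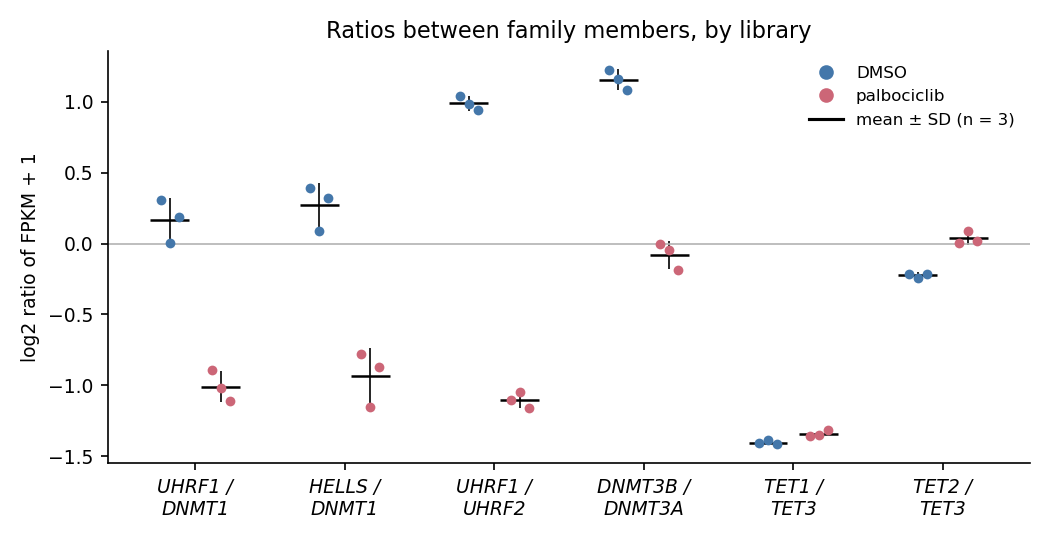
Log2 ratio of FPKM + 1 between pairs of genes in each library, DMSO in blue and palbociclib in red, with mean and SD of 3 libraries. On this scale the groups separate in all 6 pairs, by -2.09 for UHRF1 over UHRF2 and by only 0.06 for TET1 over TET3. Without the pseudocount the groups overlap for TET1 over TET3.

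Factors that work with these enzymes were read from 6 lists with 56 genes in the table, of which 32 were lower and 7 higher by limma at an adjusted p under 0.05, where 22.9% of all genes tested were lower and 20.9% higher. Their median log2 change was -0.18 against 0.00 over all genes tested. Median centring gave 22 lower and 12 higher. The partners of maintenance moved most: 9 of 11 were lower and 0 higher, with a median of -0.97. PCLAF, a PCNA-binding protein that carries a ubiquitin mark recognised by DNMT1, fell to 8.50% of its DMSO level. PCNA, the clamp that tethers DNMT1 to the fork, fell from 200.8 ± 4.53 to 32.5 ± 1.37 FPKM. LIG1, the ligase of the lagging strand and a binding partner of UHRF1, fell to 17.6%. The chromatin assembly factor subunits CHAF1B and CHAF1A fell to 16.9% and 21.0%. CDCA7L, a paralogue of the HELLS cofactor CDCA7, fell to 48.3%. USP7, a deubiquitinase that stabilises DNMT1 and UHRF1, had the highest value of the list, a log2 difference of -0.03 with an adjusted p of 0.536.

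The partners and recruiters of DNMT3 enzymes were lower for 5 of 6 genes and higher for 0, beside 22.9% and 20.9% of all genes. Their median log2 change was -0.32. Only NSD2, a histone H3 lysine 36 methyltransferase, moved by more than 0.5, to 40.5% of its DMSO level (log2 change -1.26). NSD1, another such methyltransferase, had the highest value at -0.05 (adjusted p = 0.476). Leaving out DMSO replicate 1, DMSO replicate 3, palbociclib replicate 1 or palbociclib replicate 2 left 3 of the 6 lower. Both rescalings and a block on replicate number did the same.

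Of 8 readers of methylated CG, 3 were lower, 2 higher and 3 not called, near the shares of 22.9% and 20.9% over all genes. ZBTB4 was highest at 0.36 (adjusted p = 0.000148), while MBD2 had the lowest value, -0.46, which did not pass (adjusted p = 0.088). MBD2 was read at 31.5 FPKM in DMSO replicate 3 and at 17.1 and 18.2 in the other controls. Without DMSO replicate 2 or without palbociclib replicate 3, 1 of the 8 was lower, as it was under both rescalings.

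Partners of the TET enzymes and sources of their cosubstrate 2-oxoglutarate had 4 lower and 2 higher of 8, beside 22.9% and 20.9% of all genes. WT1, a zinc finger protein that recruits TET2 and TET3, fell from 2.12 ± 0.165 to 1.01 ± 0.177 FPKM. OGT, the glycosyltransferase bound by TET2 and TET3, was the highest, rising by 0.21 on the log2 scale (adjusted p = 0.00183). Median centring turned this list to 3 lower and 4 higher.

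The base excision genes that replace oxidised methylcytosine had 4 lower, 2 higher and 6 not called of 12, near the shares over all genes, with a median log2 change of -0.00. Median centring gave 3 lower and 4 higher. The DNA glycosylase NEIL3 fell to 4.66% of its DMSO level, and the scaffold protein XRCC1 to 65.6%. NEIL1, another glycosylase, rose by 0.35 (adjusted p = 0.01). The enzymes of methyl donor supply had 7 lower and 1 higher of 11, beside 22.9% and 20.9% of all genes, with a median of -0.24, and 5 lower and 2 higher after median centring. MTHFD1, an enzyme of folate metabolism, fell to 52.7% of its DMSO level and the serine hydroxymethyltransferase SHMT1 to 68.4%.

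**Figure D3:**
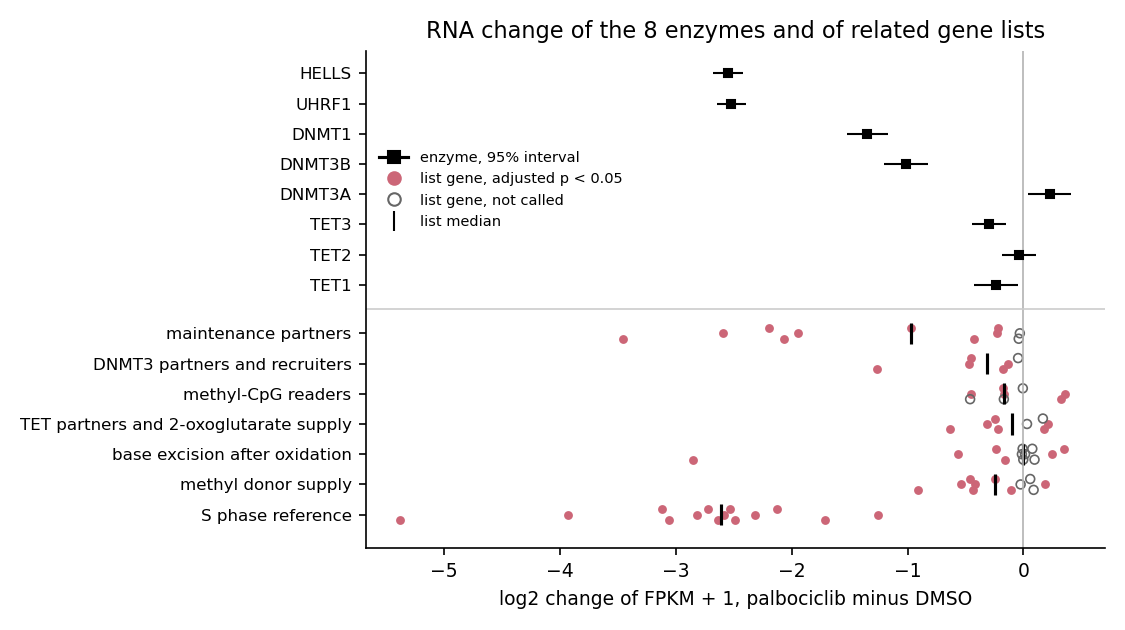
Log2 change of FPKM + 1, palbociclib minus DMSO, for the 8 genes (squares with 95% intervals) and for each gene of the lists (filled where the adjusted p is under 0.05, open otherwise, bar at the list median). HELLS at -2.55 and UHRF1 at -2.52 lie beside the S phase median of -2.61, and DNMT1 at -1.35 lies near the top of that range.

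Genes of S phase, the stage at which DNA and its methylation are copied, moved with them. All 14 of a reference list of replication genes were lower, beside 22.9% of all genes tested. Their median log2 change was -2.61, with a range from -5.38 for RRM2, a ribonucleotide reductase subunit, to -1.25 for POLA1, a DNA polymerase subunit. The part of cell cycle position in the change of the methylation genes was not tested. Of 22 germline genes that promoter methylation usually silences, 2 had a row. MAGEA1 was read at 1.01 ± 0.123 and 1.13 ± 0.0772 FPKM (adjusted p = 0.446), and TEX19 was read at 0.249 to 0.416 FPKM in all libraries, below the filter.

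The genes with the most similar profile over the 6 libraries were found among 13819 genes, by the root mean square difference of their centred log2 values. For UHRF1 they were MCM2, a subunit of the replicative helicase (0.03), FBXO5 and PCNA. For HELLS they were the mitotic kinase TTK (0.03), KIF23 and CENPW. DNMT1 was nearest to ARHGAP33 (0.03), ZNF98 and SFR1, and DNMT3B to LINC02840 (0.03), EEIG2 and CHEK2. TET3 was nearest to CYTH3 (0.02), TRIM37 and STRIP2, and TET1 to CBL (0.01), KMT2A and PEX26. With 1 contrast and 3 libraries a group, this likeness is mostly a like size of change.

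In the RNA libraries luminal epithelial markers far exceeded those of other cell types, while the ATAC libraries were not checked this way. All 10 luminal epithelial markers had a row, with a summed level of 5599 to 6125 FPKM in DMSO and 7522 to 8304 FPKM with palbociclib. Most of this sum was KRT8, KRT18 and KRT19. EPCAM alone of the 10 had a lower mean with palbociclib, 177.1 against 195.6 FPKM. TP63 was the 1 basal marker of 4 with a row, at no more than 0.113 FPKM. The fibroblast sums, 23.9 to 25.3 and 24.8 to 27.1 FPKM over 4 of 6 markers, were nearly all COL1A1, the immune sums over 2 of 5 markers reached 1.34 FPKM, and 0 of 3 endothelial markers had a row. FPKM carry no total count. Reads in ATAC peaks ranged from 12830062 to 18250496 per library, and reads over all splicing events from 85131519 to 123059742, where a read can count in several events.

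Accessibility at the genes did not follow their RNA in a single direction. Of 6 peaks within 1000 bases of one of their starts, 2 were less accessible after palbociclib, at UHRF1 and TET3, and 0 were more accessible. DESeq2 gave the same counts. At an unadjusted edgeR p under 0.05 there were 3 lower and 0 higher, but the share of all promoter peaks at that threshold was not computed. By the edgeR quasi-likelihood test over 38121 peaks at an adjusted p under 0.05, 11.0% of all 6614 such promoter peaks were lower and 1.94% higher, as were 6.46% and 5.41% of all peaks. DNMT1, HELLS and TET1 had no listed peak that near. The nearest peak edge lay 9743 bases from the DNMT1 start, 9078 bases from a TET1 start and 71517 bases from the HELLS start, so the promoters of these genes could not be compared. UHRF1 and DNMT3B had none within 1000 bases of their record starts, and their promoter peaks lay at later starts.

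The UHRF1 promoter peak at chr19:4909755-4910307, which holds the second printed window, was read at 41.1, 44.3 and 38.0 CPM (reads scaled to library size) in DMSO and at 33.8, 29.6 and 28.3 CPM with palbociclib. The groups did not overlap. The mean went from 41.2 ± 3.11 to 30.5 ± 2.87 CPM, a log2 change of -0.43 (SE 0.08, edgeR adjusted p = 6.37e-05), smaller than the change of the RNA. This peak also lies in the record of ARRDC5, as do those at chr19:4911860-4912393 and chr19:4914761-4915517.

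Inside UHRF1 the change ran the other way. The peak at chr19:4911860-4912393, centred 1759 bases past the nearest start, rose from 28.7, 30.9 and 32.9 CPM to 43.1, 44.4 and 39.2 CPM (log2 change 0.45, edgeR adjusted p = 1.54e-05). A peak 29299 bases past it, at chr19:4939417-4939916, rose from 7.55, 8.34 and 6.13 CPM to 13.3, 15.6 and 14.6 CPM (log2 change 0.97, edgeR adjusted p = 1.45e-07). UHRF1 thus held a promoter peak that fell and peaks inside the gene that rose. The peak at chr19:4914761-4915517 rose by 0.20 (edgeR adjusted p = 0.0105), which was lost without DMSO replicate 1 (0.0912) or palbociclib replicate 2 (0.0805).

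TET3 was lower at its first start and at 1 of 2 peaks inside the gene away from promoters. The other of these, at chr2:74120007-74120683, had a log2 difference of 0.03 (edgeR adjusted p = 0.846). The peak at chr2:73983451-73984462 was read at 91.8, 87.2 and 92.6 CPM in DMSO and at 72.8, 78.5 and 65.8 CPM with palbociclib (log2 change -0.32, edgeR adjusted p = 5.6e-05). The peak at chr2:74009686-74010683, centred 7492 bases past another start, fell furthest, from 58.2, 52.9 and 50.9 CPM to 31.1, 33.5 and 32.0 CPM (log2 change -0.74, edgeR adjusted p = 2.02e-12). In both peaks every treated library was below every control. The peak at chr2:73981163-73981839, upstream of the first start and also in the record of DGUOK-AS1, fell from 31.0 ± 1.30 to 24.2 ± 2.39 CPM (log2 change -0.35, edgeR adjusted p = 0.00293). At the promoter peak chr2:74002375-74002944 the log2 difference of -0.26 did not pass (edgeR adjusted p = 0.118), although the groups did not overlap.

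At the other promoters no difference passed. The DNMT3A peak at chr2:25341819-25342855 had means of 39.8 ± 3.87 and 41.1 ± 3.18 CPM (log2 difference 0.04, SE 0.08, edgeR adjusted p = 0.789), and the TET2 peak at chr4:105146112-105147104 had 34.1 ± 4.08 and 35.6 ± 2.76 CPM (0.06, SE 0.08, edgeR adjusted p = 0.714). The DNMT3B peak at chr20:32778323-32778895 had 20.4 ± 0.412 and 18.6 ± 1.06 CPM (-0.14, SE 0.10, edgeR adjusted p = 0.403), beside an RNA that fell to 39.8%. This peak lies near a later start, its centre 16224 bases past the start of the DNMT3B record. At the record start no peak was listed, so accessibility there could not be compared. Upstream of the later start but inside the DNMT3B record, the peak at chr20:32772115-32772356 rose from 4.09, 5.27 and 5.21 CPM to 6.56, 8.71 and 8.19 CPM (log2 change 0.67, edgeR adjusted p = 0.00451). It is a low peak, with 52 to 128 reads per library. Of the 12 peaks inside the genes and away from promoters, 4 were higher at UHRF1 or DNMT3B and 1 lower at TET3, where 6.14% and 5.50% of all non-promoter peaks were.

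**Figure D4:**
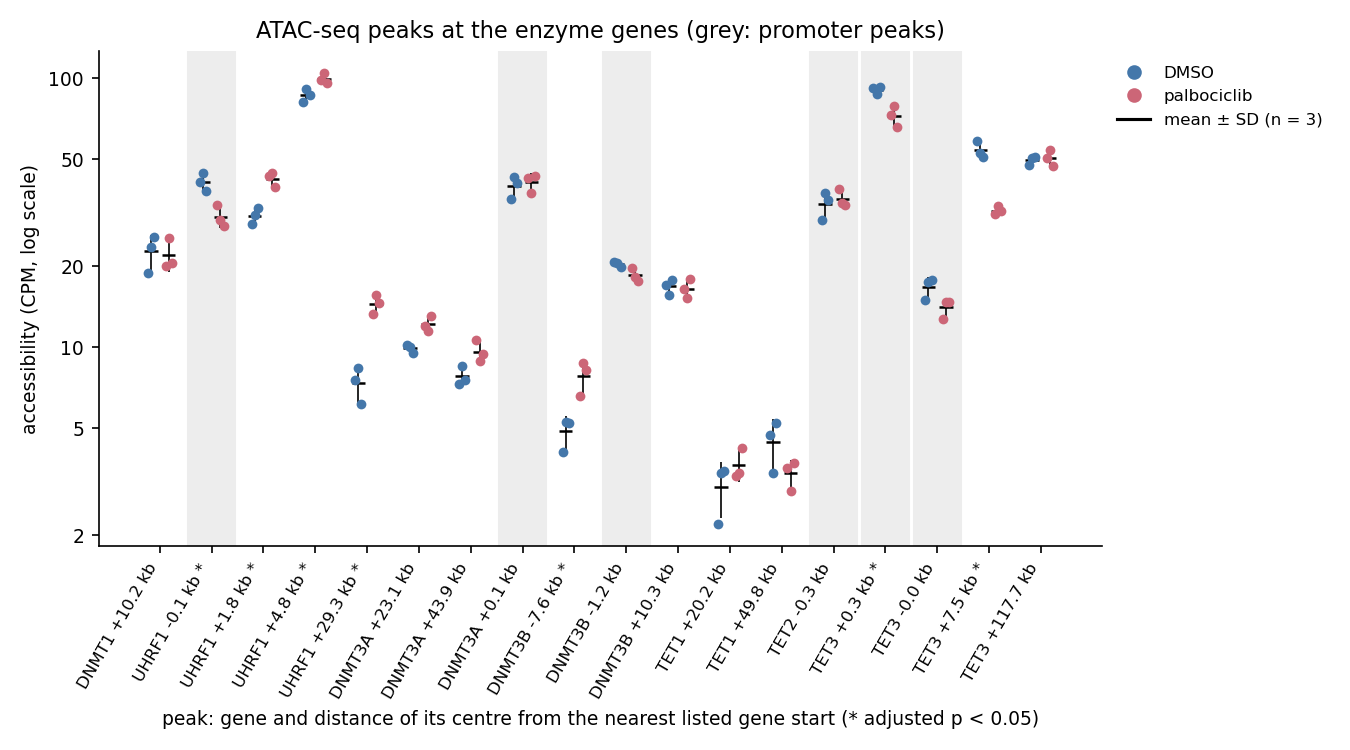
Accessibility in CPM on a log axis for every peak inside the genes or within 1000 bases of a start, named by the distance of its centre from the nearest start in kilobases, with the mean and SD of 3 libraries and an asterisk at an adjusted p under 0.05. UHRF1 falls at its promoter and rises at 3 peaks inside the gene, and TET3 falls most at the peak 7492 bases past a start.

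RNA processing of these genes gave no call by the edgeR test of inclusion against skipping reads. Of 103 listed events 30 passed the filters for testing, 66 were left out for a minor form under 5% of reads alone, 5 for a mean under 20 reads alone and 2 for both. Of those tested, 0 passed an adjusted p under 0.05, where 0.363% of 37445 events passed. At an unadjusted p under 0.05 there were 2, against 8.53% of all events. The authors' deposited rMATS tables call 1 event of these genes at a false discovery rate under 0.05, against 2.47% of all events listed. Testable events numbered 16 of 44 in DNMT1, 5 of 10 in DNMT3B, 4 of 10 in TET2, 4 of 19 in HELLS and 1 of 8 in DNMT3A, and 0 of 4 each in UHRF1, TET1 and TET3.

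The event called in the authors' deposited table is a skipped exon of DNMT3A, 70 bases long at chr2:25236936-25237005, with a false discovery rate of 0.0286. Its inclusion was 73.8, 81.9 and 100% in DMSO and 100, 100 and 90.1% with palbociclib. The groups overlapped, the counts behind each value were 25 to 53 reads, and the edgeR adjusted p was 0.63.

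In DNMT1 none of the named events was called. A 48-base exon at chr19:10180187-10180234 was included at 31.7, 28.9 and 27.0% in DMSO and at 30.6, 36.9 and 30.6% with palbociclib, from 215 to 569 reads (edgeR adjusted p = 0.88). For the mutually exclusive pair of a 76-base exon at chr19:10177292-10177367 and a 220-base exon at chr19:10180350-10180569, the level was 53.9 ± 1.69% and 51.1 ± 0.42% (adjusted p = 0.796). The groups of that pair did not overlap, with a difference of -2.80 percentage points. For such a pair the level is the share rMATS gives to 1 of the 2 exons. An alternative 5′ splice site adds 9 bases to an exon, which in its longer form spans chr19:10137076-10137280. The longer form was used at 11.5 ± 3.73 and 11.9 ± 3.56%. Retention of the 320-base intron at chr19:10160064-10160383 was 1.90 ± 0.36 and 2.13 ± 1.02%.

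In TET2, whose RNA overlapped between the groups, the exons at chr4:105190360-105190505 and chr4:105241339-105241429 had the largest difference of the named events in percentage points, -18.7. The level of this mutually exclusive pair was 45.7, 48.6 and 65.5% in DMSO and 37.6, 35.5 and 30.6% with palbociclib. Every treated library was below every control, from 31 to 71 reads, with an unadjusted p of 0.0462 and an edgeR adjusted p of 0.576. Counted as a skipped exon, the first of them was included at 86.1 ± 5.67 and 73.4 ± 16.6%, and there the groups overlapped (adjusted p = 0.726).

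Reads over events were few for HELLS after palbociclib and for DNMT3B in both groups. In HELLS the exons at chr10:94594695-94594854 and chr10:94596860-94597111 had a level of 70.2 ± 1.23% in DMSO from 768 to 1068 reads and of 75.3 ± 7.30% with palbociclib from 104 to 199 reads (adjusted p = 0.769). Retention of its 78-base intron at chr10:94596957-94597034 was 9.10 ± 0.66 and 6.77 ± 3.51%. An alternative 5′ splice site adds 62 bases to the exon whose longer form is chr10:94546377-94546560. That form was used at 4.70 ± 3.18 and 3.27 ± 1.36%. In DNMT3B the 119-base exon at chr20:32806209-32806327 was included at 80.4 ± 17.8 and 92.7 ± 8.02% from 21 to 75 reads (adjusted p = 0.819). Its intron at chr20:32796870-32797186 was retained at 9.30 ± 4.40 and 8.20 ± 3.54%. An alternative 3′ splice site adds 94 bases to the exon whose longer form is chr20:32795315-32795534. That form was used at 16.0 ± 3.95 and 13.7 ± 8.50%.

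**Figure D5:**
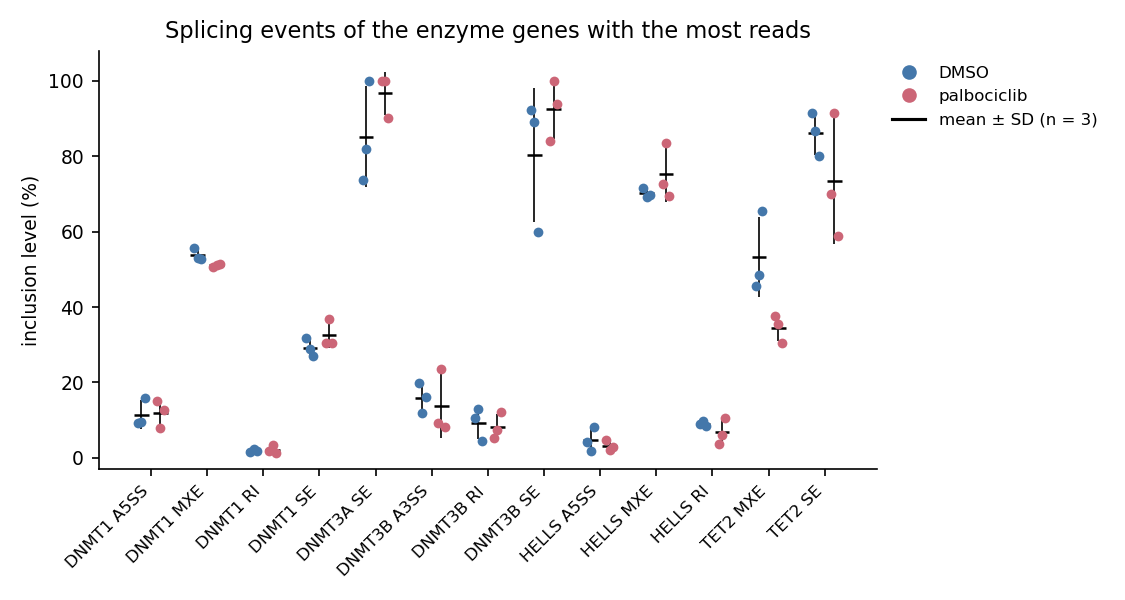
Inclusion level in percent of the 13 named splicing events in each library, with mean and SD of 3 libraries (SE skipped exon, MXE mutually exclusive exons, RI retained intron, A5SS and A3SS alternative 5′ and 3′ splice sites). The skipped exons of DNMT3A and DNMT3B spread widely in DMSO, and the TET2 pair separates at 30.6 to 37.6% against 45.7 to 65.5%.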

How the data were processed

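RNA-seq and ATAC-seq of T-47D cells with palbociclib or DMSO were used, 3 libraries per group and assay. RNA levels were FPKM deposited by the authors. The authors' DESeq2 table holds a mean normalized count per gene (a signal value), log2 fold changes, a Wald score and, per the file headers, p-values. rMATS tables deposited by the authors hold inclusion and skipping read counts, a difference score and p-values. For ATAC the authors ran featureCounts 2.0.6, per the file headers with no option for read pairs, which gave raw counts in 1 common set of peaks. Per the submitters' processing notes the build was GRCh38, and tools included fastp 0.23.2, Salmon 1.10.2, DESeq2 1.44.0 and STAR 2.7.10b for RNA, and Bowtie2 2.5.4-6, Picard 3.4.0-0 and MACS3 3.0.3-0 for ATAC; annotation and strand are not given in the sources used here. A shift of reads for Tn5 is not given there either.

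Here, log2(FPKM + 1) was compared with limma 3.58.1 (R 4.3.3, intensity trend); genes under a mean of 0.5 FPKM were left out. A fold change on this scale understates the change of low genes. Peak counts were compared with edgeR 4.0.16 (quasi-likelihood, TMM, filterByExpr), and splicing reads with edgeR too, by a form-by-treatment term beside library terms, where an event averaged 20 reads or more and its minor form 5% or more. Calls used a Benjamini-Hochberg adjusted p under 0.05 over all features, and for splicing over all 5 event types together. Gene starts, records and promoter windows were RefSeq's (GRCh38.p14). Of 19460 genes, 15427 had a symbol in the authors' table and 18484 after a gene name table.

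On simulated data the RNA test recovered 40% of genes changed by 0.3 and 97% of those changed by 1 on the log2 scale (15869 genes; 9.27% of calls were false), the ATAC test 63% at 0.5 and 100% at 1 (38121 peaks), and the skipped exon test 30% at 1 and 90% at 2 (13469 events). Changes were set only in genes whose mean log2(FPKM + 1) in DMSO exceeded 1, a level that TET1 did not reach. Shifts were set only in skipped exons averaging at least 100 reads, more than those named in DNMT3A, DNMT3B and TET2 had. Recovery at lower levels and read numbers was not measured. Far fewer genes were changed there than the 22.9% and 20.9% called in the data, so recovery and the false share may differ here. The false share of the RNA test, 9.27%, was above the aim of its adjusted p threshold. The spread of the simulated skipped exons between libraries was a set value, not one measured in these libraries. The genes and lists were chosen with earlier results of these data known. Named were the 8 genes, list genes called with a log2 change of at least 0.5, the highest and lowest of each list, the 3 nearest profiles of each called gene (mean FPKM of at least 1), every promoter peak, other peaks when called, and events called by either test or with the most reads of their type. Of the list genes, 1 is not reported here. Alternatives were another pseudocount, filters, scalings, DESeq2 1.42.0, a replicate block and leaving out each library. The tests and SDs cover the spread between libraries. Read numbers, where given, bear on counting error alone, and no molecular identifiers were stated.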

Additional observations from a re-analysis of the deposited data

How the results depend on the processing

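The falls of HELLS, UHRF1, DNMT1, DNMT3B and TET3 kept their direction and call under every alternative run. TET1 was -0.50 with a pseudocount of 0.1 FPKM, -0.14 with median centring and -0.23 with the replicate block (limma adjusted p = 0.075), none of them called, and -0.28 to -0.21 on leaving out 1 library, called only without palbociclib replicate 3. DNMT3A became a call at 0.26 with quantile normalization, 0.32 with median centring, 0.22 without the trend and 0.34 in the authors' deposited table, which makes 1 of the 8 higher in each. TET2 turned to 0.0259 and 0.0561 under the first pair of these. The median of all genes, 0.00, moved to 0.06 and 0.10 there, so that changes near those values are relative to the scaling; median centring gave 5468 genes higher and 12 list genes higher. TET1 over TET3 reversed to -0.13 with a pseudocount of 0.1 FPKM (exact permutation p = 0.3).

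DESeq2 called 1533 peaks lower and 981 higher where edgeR called 2464 and 2061; library totals in place of TMM called 2030 and 2573. Leaving out 1 library gave 1557 to 2176 lower and 1103 to 1874 higher, and -0.0309 to 0.1021 for the DNMT3A promoter peak and -0.0309 to 0.1319 for that of TET2. A limit of 2000 bases gave 3 lower and 1 higher promoter peaks in place of 2 and 0. It added the lower TET3 peak at chr2:73981163-73981839 and the higher UHRF1 peak at chr19:4911860-4912393. The share over all peaks within that limit was not computed. For splicing, 136 events were called, 44 with no filter on the minor form, 249 with the replicate block, 59 to 126 on leaving out 1 library and, of the same 37445 events tested, 1432 by the authors' deposited rates, which call 1 event here. On leaving out 1 library the log2 odds of inclusion changed sign, none called, within -0.1337 to 0.3887 for the DNMT1 5′ splice site, -0.2587 to 0.3965 for its intron, -0.5522 to 0.2943 for the DNMT3B intron, -0.9163 to 0.0176 for its 3′ splice site and -0.899 to 0.2321 for the HELLS 5′ splice site. The causes were not tested.

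Replicate numbers share no stated origin, and same-numbered libraries correlated at -0.01 to 0.11 in RNA and -0.03 to 0.04 in ATAC, so they were not treated as pairs; with the replicate block 5 of the 8 genes were lower. UHRF1, TET1 and TET3 had 0 testable events, and all 12 of their events had a minor form under 5% of reads.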
